A study of Danio rerio with 3 samples.

Results

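RNA-seq of zebrafish larvae with *atg5* mRNA injection as their labelled treatment, named 5mRNA, was set against that of uninjected wild-type larvae (WT). Every gene with a name in the deposited expression table and a mean of at least 1 RPKM over the libraries of the series was compared, which gave 19172 of 28084 named genes. RPKM is the read count of a gene divided by its length and by the depth of the library. Of the 8912 named genes left out as low, 2179 were at 0 in every library. The measure of difference was the log2 ratio of RPKM + 0.1, 5mRNA over WT.

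The series holds 3 RNA-seq libraries of larvae of strain AB at 6 days post-fertilization (dpf), 1 from each group. The larvae of 5mRNA carry the genotype label *atg5* overexpression and those of WT are labelled untreated, while another group (5MO) was injected with an *atg5* morpholino, an antisense oligonucleotide that blocks the transcript. The methods give morpholino injection at the 1-cell to 4-cell stage, and say neither when the mRNA was injected nor how many larvae made up the 5mRNA library. No library of larvae injected with a control RNA or control oligonucleotide was analysed here, so injection and *atg5* cannot be told apart, and with 1 library a group no difference has a replicate check.

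Autophagy delivers cytoplasmic cargo to the lysosome in double-membraned vesicles. Atg5 is joined to Atg12, and with Atg16l1 the pair attaches Atg8 proteins such as LC3 to the growing membrane. Fasting and stress raise this turnover in many tissues, the liver and muscle among them.

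The targeted gene was looked at first. *atg5* (ENSDARG00000023396, chromosome 16, positions 7463117 to 7499186 of danRer10) had 8.97 RPKM in 5mRNA and 7.69 RPKM in 5MO, against 9.08 RPKM in WT. The ratio of its share of reads in 5mRNA to that in WT was 0.989, with a 95% counting interval of 0.861 to 1.14, and the log2 ratio was -0.02. The level of *atg5* at 6 dpf therefore does not show the overexpression that the label gives, and each direction below is that of the library labelled 5mRNA. Whole reads behind each value, recovered from the steps between RPKM values, gave the intervals. Of 54 autophagy genes compared, 28 were higher and 26 lower in 5mRNA, with a median log2 ratio of 0.03 and none past 2-fold. *ulk2*, a kinase that starts autophagy, was the furthest from WT, at 87.8 RPKM in 5mRNA and 69.8 RPKM in 5MO, against 160 RPKM in WT.

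The libraries were close in depth. The read totals behind the RPKM values were 21857365 in 5mRNA, 20301332 in 5MO and 19502144 in WT, and 87.63% to 87.88% of the read pairs mapped to 1 place. The label of larvae was checked on 33 marker genes of 21 tissues, of which 31 were found, and 20 tissues had a marker at 1 RPKM or more in both 5mRNA and WT. The exception was the germ cells, whose marker *ddx4* had 0.924 RPKM in 5mRNA and 0.832 RPKM in WT. Counts of genes past 2-fold were of like size in each pair of libraries, at 519 for 5mRNA over WT, 534 for 5MO over WT and 478 for 5mRNA over 5MO.

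Most genes differed little. Between 5mRNA and WT, 17209 of 19172 genes (89.8%) lay within 1.5-fold, and the median log2 ratio was 0.01. At least 2-fold higher in 5mRNA were 204 genes (1.06% of those compared), and at least 2-fold lower were 315 genes (1.64%). At 1.5-fold the counts were 933 genes higher (4.87%) and 1030 genes lower (5.37%). By any amount, 51.1% of genes were higher and 48.9% lower. The counting interval of the ratio lay above 1 for 19.1% of genes and below 1 for 18.8%, and it covers the counting of reads only, not the spread between larvae. These shares are the background for each list of genes below.

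The 2 directions differed in size and in level. A difference of 4-fold or more was seen for 58 genes lower in 5mRNA and for 12 genes higher. The filter bears on this. Less than 1 RPKM in both 5mRNA and 5MO was seen for 74 genes, which were compared only because WT was high. They held 49 of the 315 genes at least 2-fold lower. How many genes were compared only because 5mRNA was high was not worked out. Without a filter, 1132 genes were at least 2-fold higher and 1100 at least 2-fold lower. With the filter on the mean of 5mRNA and WT only, 198 were higher and 318 lower. A minimum mean of 5 RPKM gave 36 higher and 96 lower. Among genes with a mean of 1 to 2 RPKM, 109 were at least 2-fold higher and 123 at least 2-fold lower of 2336. Of the 1636 genes at 50 RPKM or more, 1 was at least 2-fold higher and 12 were at least 2-fold lower. Genes annotated as protein-coding gave 155 higher and 265 lower of 17670. Of the genes past 2-fold, 105 of the 204 higher and 128 of the 315 lower have only a clone or locus name. The share of such names among all genes compared was not worked out, so these counts have no background. By chromosome, the share at least 2-fold lower ran between 0.891% on chromosome 24 and 2.497% on chromosome 1. Next to the limit, *si:dkey-219c10.4* was just inside at 2.83 RPKM in 5mRNA and 1.36 RPKM in WT. *hhla2b.2* was just outside at 15.4 RPKM in 5mRNA and 7.68 RPKM in WT.

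**Figure D1:**
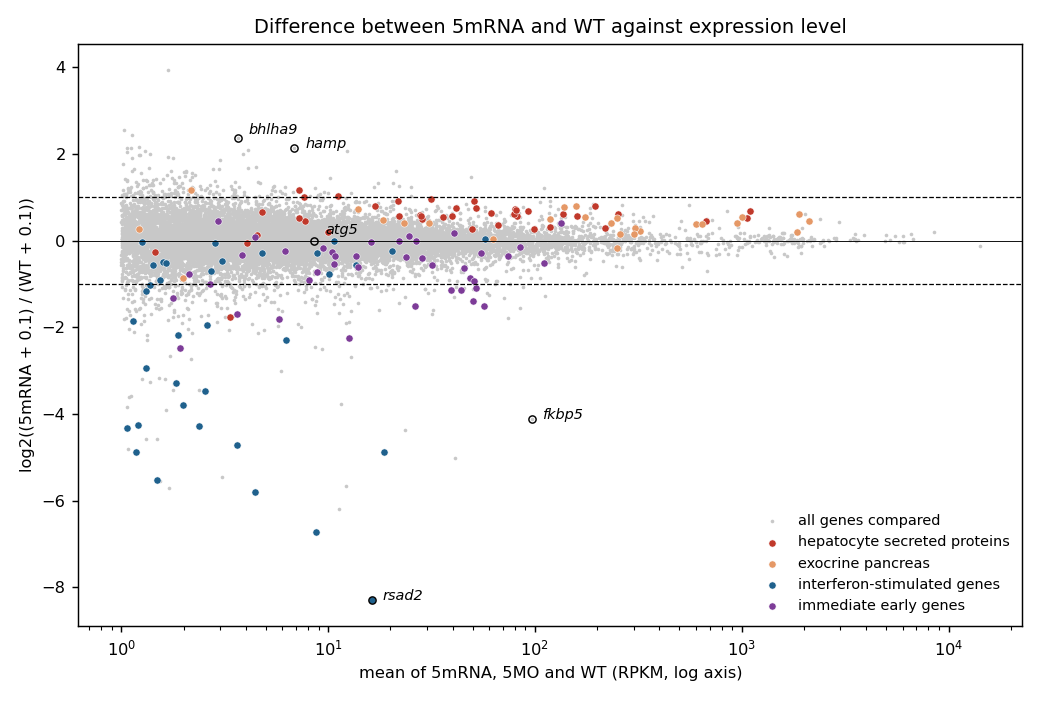
Each grey point is 1 of 19172 genes, with its mean level over the 3 libraries on the horizontal axis (RPKM, log axis) and the log2 ratio of 5mRNA to WT on the vertical axis; dashed lines mark 2-fold and colours mark 4 gene lists. Interferon-stimulated genes reach down to -8.28 for *rsad2*, most hepatocyte and pancreas genes lie above 0, and *atg5* lies at -0.02.

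To see which tissues and processes differed, 78 lists of genes were described, 43 of tissues or cell types and 35 of processes, which held 2289 of the genes compared. Lists of liver, complement and exocrine pancreas genes had the highest medians among lists with at least 20 genes compared. Those of interferon-stimulated, immediate early and lens genes had the lowest. In whole larvae, more cells of a type cannot be told apart from more RNA per cell.

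**Figure D2:**
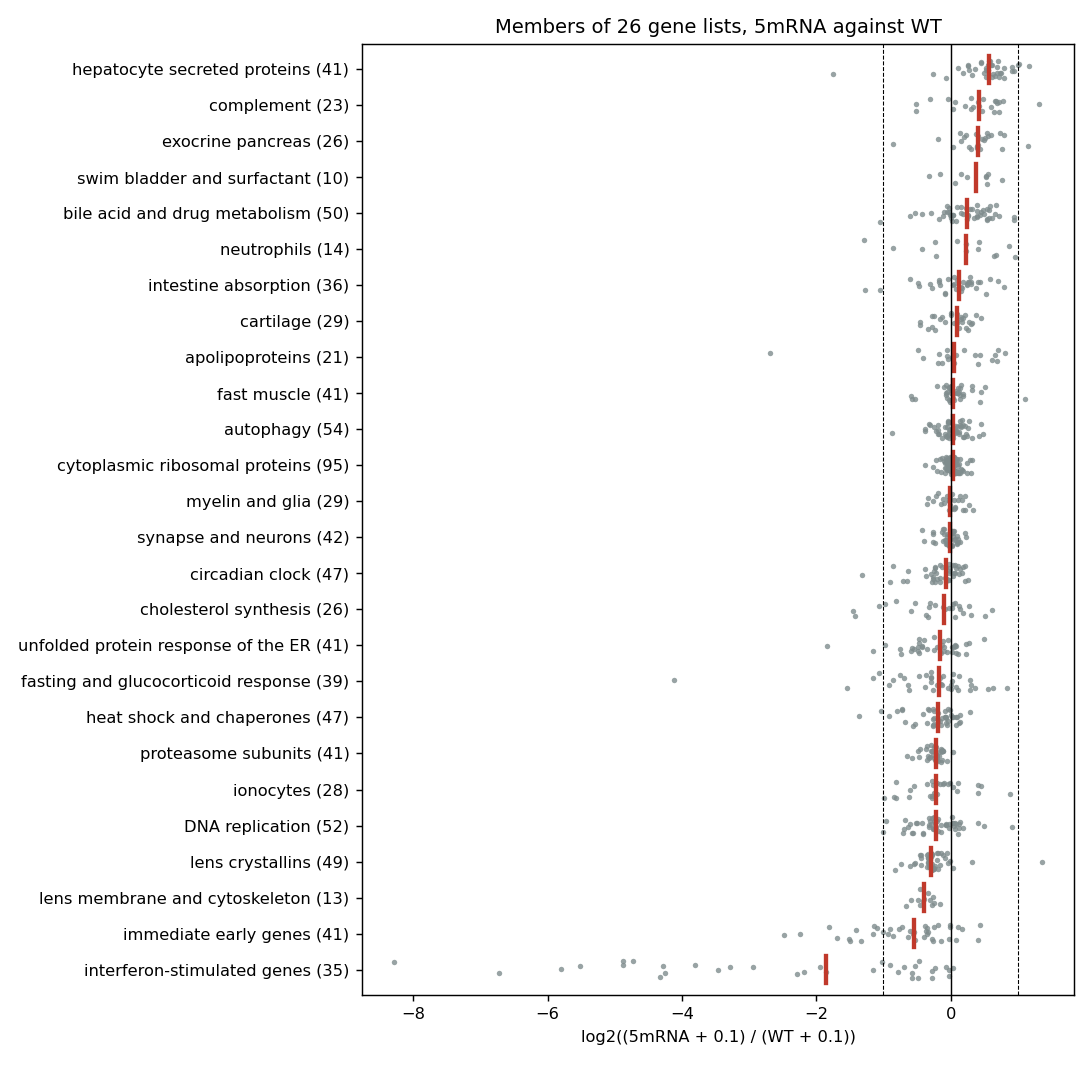
Each grey point is a gene of the list named at the left (number of genes compared in parentheses), placed by its log2 ratio of 5mRNA to WT; red bars are list medians, the solid line is the median of all genes and dashed lines mark 2-fold. Hepatocyte secreted proteins have a median of 0.57 and interferon-stimulated genes one of -1.85, while neurons, myelin and ribosomal proteins sit at the median of all genes.

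The hepatocyte makes most plasma proteins, and nearly all of its genes on the list were higher in 5mRNA. Of 41 genes for hepatocyte secreted proteins and liver enzymes, 38 were higher than in WT, 20 of them at least 1.5-fold and 3 at least 2-fold, against 4.87% and 1.06% of all genes. The median log2 ratio was 0.57, and the counting interval lay above 1 for 36 genes. Summed over the list, the level was 5708 RPKM in 5mRNA and 5638 RPKM in 5MO, against 3852 RPKM in WT. The median in 5MO over WT was 0.66. Both medians use the same WT library.

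The most abundant liver genes included carriers of lipids, retinol and iron. *fabp10a*, the liver fatty acid binding protein, had 1314 RPKM in 5mRNA and 1150 RPKM in 5MO, against 816 RPKM in WT. *fetub*, a secreted protease inhibitor, had 1105 RPKM in 5mRNA and 1325 RPKM in 5MO, against 768 RPKM in WT. *rbp4*, the plasma carrier of retinol, had 806 RPKM in 5mRNA and 619 RPKM in 5MO, against 591 RPKM in WT. In each of the 3 genes WT was the lowest library. Transferrin (*tfa*), which carries iron, had 286 RPKM in 5mRNA and 287 RPKM in 5MO, against 186 RPKM in WT.

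Clotting factors and an anticoagulant were both among the higher genes. *f7*, which starts the extrinsic pathway, had 10.5 RPKM in 5mRNA and 7.35 RPKM in 5MO, against 5.16 RPKM in WT, a ratio of read shares of 2.03 (counting interval 1.70 to 2.43). Its neighbour *f7i* on chromosome 1, outside the liver list, had 12.5 RPKM in 5mRNA and 13.5 RPKM in 5MO, against 4.52 RPKM in WT. The anticoagulant protein C gene *proca* was the furthest of the list above WT, at 9.32 RPKM in 5mRNA and 8.35 RPKM in 5MO, against 4.08 RPKM in WT. Prothrombin (*f2*) had 42.2 RPKM in 5mRNA and 28.3 RPKM in WT, and the fibrinogen genes *fga*, *fgb* and *fgg* had log2 ratios of 0.31, 0.57 and 0.69. The cofactor *f5* did not share this, with 3.46 RPKM in 5mRNA, 5.11 RPKM in 5MO and 3.62 RPKM in WT.

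A single liver gene was far below WT. *serpina7*, named for the thyroxine-binding globulin of mammals, had 1.82 RPKM in 5mRNA and 1.89 RPKM in 5MO, against 6.38 RPKM in WT, and its interval of 0.209 to 0.383 lay under those of the other 40 members. *igf1*, the growth factor that the liver secretes under growth hormone, had 1.37 RPKM in 5mRNA and 1.66 RPKM in WT, with an interval of 0.513 to 1.32 that includes 1. *vtna* and *vtnb*, the vitronectins of cell adhesion, were at log2 ratios of 1.02 and 0.79.

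Genes of liver metabolism followed a like pattern with smaller differences. *cyp7a1*, the rate-limiting enzyme of bile acid synthesis, had 44.9 RPKM in 5mRNA and 26.5 RPKM in 5MO, against 23.1 RPKM in WT, so that 5MO was much nearer to WT. *cyp3a65*, a drug-metabolizing cytochrome P450 of liver and gut, had 376 RPKM in 5mRNA and 359 RPKM in 5MO, against 259 RPKM in WT. Over 50 genes of bile acid and drug metabolism, 37 were higher and 13 lower in 5mRNA, with a median of 0.25 and 7 at least 1.5-fold higher. The only one of them at least 2-fold lower was *slc10a2*, the bile acid transporter of the ileum in mammals, at 8.33 RPKM in 5mRNA and 8.08 RPKM in 5MO, against 17.3 RPKM in WT.

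Complement proteins are also made largely in the liver. Of 23 complement genes, 19 were higher in 5mRNA and 9 were at least 1.5-fold higher, with a median of 0.43 (0.59 in 5MO over WT). *cfhl4*, a factor H-like gene, had 116 RPKM in 5mRNA and 78.3 RPKM in 5MO, against 67.3 RPKM in WT. *c9*, the pore-forming component, had 60.3 RPKM in 5mRNA and 75.2 RPKM in 5MO, against 37.7 RPKM in WT. *cfhl5* was the 1 member at least 2-fold higher, at 2.303 RPKM in 5mRNA and 0.860 RPKM in WT. In the other direction lay *cfh* and *c7b*, both at a log2 ratio of -0.52. The *c3* genes are near copies of one another, and reads may have been split between them.

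Apolipoproteins divided. *apoa1b*, the main protein of high-density lipoprotein, had 2113 RPKM in 5mRNA and 2596 RPKM in 5MO, against 1376 RPKM in WT, and *apoa2* had 944 RPKM in 5mRNA and 1006 RPKM in 5MO, against 584 RPKM in WT. *apoc1l* was the furthest above WT, at 352 RPKM in 5mRNA and 237 RPKM in 5MO, against 200 RPKM in WT. *apoa4b.3*, one of the intestinal apolipoprotein A-IV genes, was the reverse of these, at 2.05 RPKM in 5mRNA and 22.8 RPKM in 5MO, against 13.8 RPKM in WT, so that 5mRNA lay under both other libraries. Over the 21 genes, 12 were higher and 9 lower, and the median was 0.05.

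The exocrine pancreas makes the digestive enzymes of the gut. Its genes were higher in 5mRNA for 24 of 26, with a median log2 ratio of 0.40 and counting intervals above 1 for 22, though only 5 were past 1.5-fold. The sum of the list was 13704 RPKM in 5mRNA and 11178 RPKM in 5MO, against 10346 RPKM in WT, and the median in 5MO over WT was 0.04. The trypsin gene *try* had 2559 RPKM in 5mRNA and 1932 RPKM in 5MO, against 1880 RPKM in WT. *prss59.2*, another trypsin, had 2452 RPKM in 5mRNA and 1624 RPKM in 5MO, against 1609 RPKM in WT. In both genes 5MO lay next to WT and 5mRNA above them.

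The other pancreatic genes named differed in size and direction. Chymotrypsin (*ctrb1*) had 1939 RPKM in 5mRNA and 1938 RPKM in 5MO, against 1696 RPKM in WT. Syncollin, a protein of the zymogen granule, is encoded by *sycn.1* and *sycn.2*. The gene *sycn.1* was the list's furthest member, at 3.81 RPKM in 5mRNA and 1.09 RPKM in 5MO, against 1.65 RPKM in WT (interval 1.33 to 4.14), and *sycn.2* had 188 RPKM in 5mRNA and 116 RPKM in 5MO, against 110 RPKM in WT. The carboxypeptidase *cpa5* was lower, at 234 RPKM in 5mRNA and 265 RPKM in WT, and *zgc:92590* had 1.75 RPKM in 5mRNA and 3.28 RPKM in WT. The islet hormone genes, from the endocrine part of the same organ, were split 6 to 6 with a median of 0.06. Trypsin and elastase genes have near-identical copies, so the share of each copy is uncertain.

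**Figure D3:**
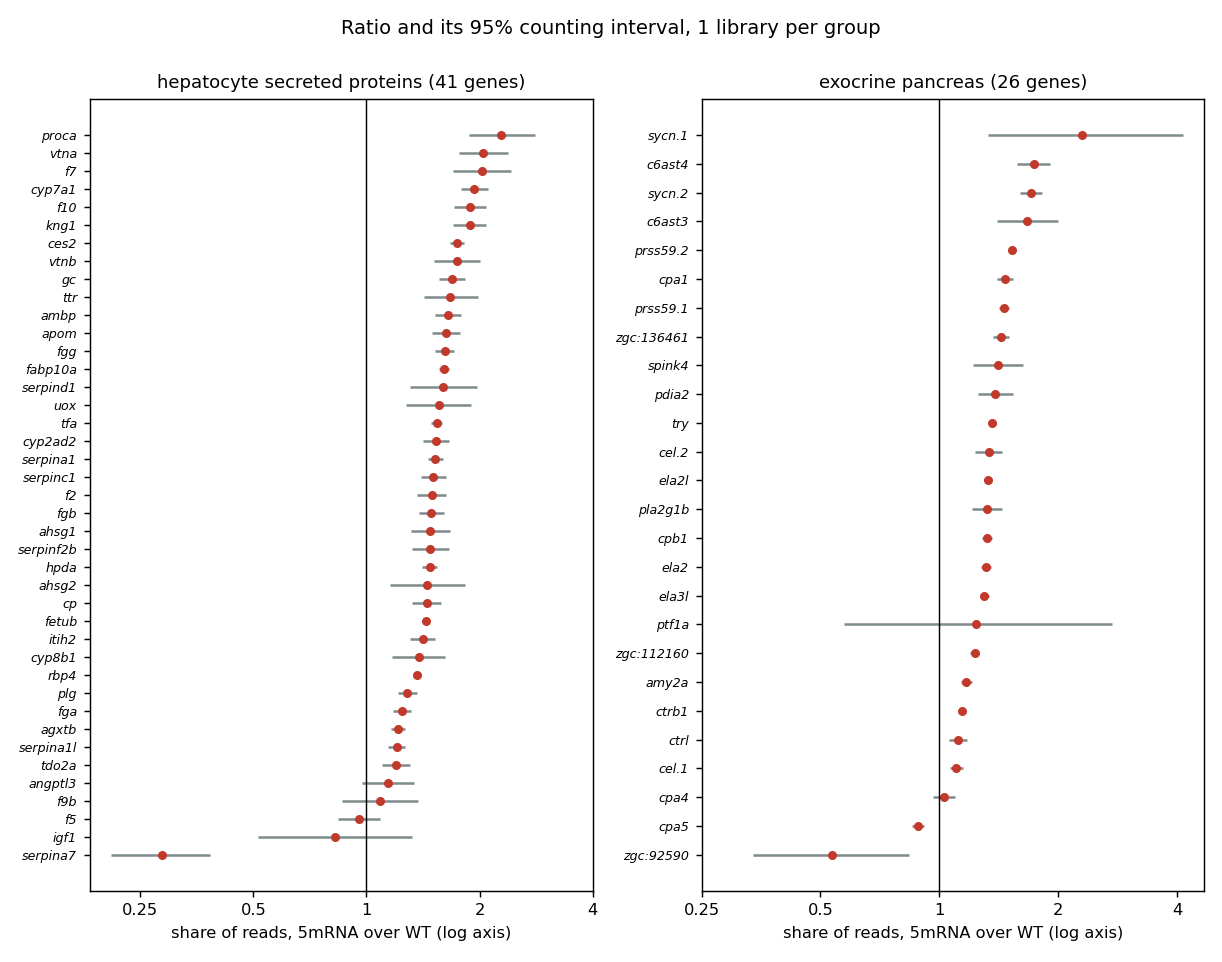
Each red point is the share of all reads a gene took in 5mRNA divided by its share in WT (log axis), with the 95% counting interval as a grey bar, for 41 hepatocyte genes (left) and 26 exocrine pancreas genes (right). Ratios run up to 2.301 for *sycn.1* and 2.29 for *proca*, and *serpina7* stands alone at 0.285.

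Acute phase and antimicrobial genes, used by the liver and other tissues against infection, pointed both ways. Of 20 genes, 9 were higher and 11 lower, with 4 at least 2-fold in each direction. *hamp*, which encodes the iron hormone hepcidin, had 13.9 RPKM in 5mRNA and 3.66 RPKM in 5MO, against 3.07 RPKM in WT, and a ratio of read shares of 4.51 (3.36 to 6.16). Here 5mRNA stood above both other libraries. The C-reactive protein gene *crp3* had 41.8 RPKM in 5mRNA and 13.0 RPKM in 5MO, against 20.5 RPKM in WT, and *pglyrp2*, a peptidoglycan recognition protein, had 1.91 RPKM in 5mRNA and 0.664 RPKM in WT. Serum amyloid A (*saa*) was in the opposite direction, at 1.11 RPKM in 5mRNA and 1.72 RPKM in 5MO, against 3.50 RPKM in WT. The list shares the early genes *fosl1a* and *junba*, both more than 2-fold lower, with that of immediate early genes. *fosl1a* had less than 1 RPKM in both 5mRNA and 5MO and was compared only because WT was high. The iron exporter *slc40a1*, which hepcidin degrades as a protein, had 14.7 RPKM in 5mRNA and 12.4 RPKM in WT.

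Neutrophil genes lay beside these. The defining markers *mpx* (myeloperoxidase) and *lyz* (lysozyme) had 2.82 and 38.4 RPKM in 5mRNA, against 1.49 and 24.0 RPKM in WT. Of the 14 neutrophil genes compared, 9 were higher and 5 lower, and the summed level was 364 RPKM in 5mRNA and 347 RPKM in WT. The most divergent member, *lect2l*, was lower at 17.6 RPKM in 5mRNA and 10.1 RPKM in 5MO, against 43.3 RPKM in WT. The part that such cells had in the acute phase values was not tested.

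Genes of glycolysis and gluconeogenesis pointed both ways. *gapdh*, a glycolytic enzyme and the most abundant member, had 3666 RPKM in 5mRNA and 2499 RPKM in 5MO, against 2726 RPKM in WT. *fbp2*, a fructose bisphosphatase of gluconeogenesis, was the only one of 41 genes past 2-fold, at 10.22 RPKM in 5mRNA and 2.85 RPKM in 5MO, against 4.58 RPKM in WT. *pck1*, the first committed enzyme of gluconeogenesis, was lower, at 583 RPKM in 5mRNA and 510 RPKM in 5MO, against 941 RPKM in WT. The median of the list was -0.01 while its sum was higher, at 11903 RPKM in 5mRNA and 10205 RPKM in WT. In the intestine, *slc6a19a.1*, an amino acid transporter, had 6.24 RPKM in 5mRNA and 5.18 RPKM in 5MO, against 15.2 RPKM in WT, and 23 of 36 absorption genes were higher.

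The largest differences lay among interferon-stimulated genes, which cells switch on against viruses. In 5mRNA, 34 of 35 were lower than in WT, 20 of them at least 2-fold against 1.64% of all genes, and none was 2-fold higher. The filter shaped this count, since 16 of the 20 had less than 1 RPKM in both 5mRNA and 5MO and were compared only because WT was high, and 13 more genes of the list were too low to be compared. Of the 19 members not below 1 RPKM in both injected libraries, 4 were at least 2-fold lower, with a median of -0.53. The median of the 35 was -1.85, beside -1.73 in 5MO over the same WT library, and became -0.67 with a minimum mean of 5 RPKM and -1.07 with a pseudocount of 1 RPKM. Summed, they gave 143 RPKM in 5mRNA and 155 RPKM in 5MO, against 373 RPKM in WT. The lowest ratios were those of effectors. *rsad2*, whose product viperin makes a chain-terminating nucleotide, had 2 recovered reads in 5mRNA and 4 in 5MO, against 1540 in WT, a ratio of 0.00116 with an interval of 0.000140 to 0.00419. *ifit8* had no reads in either injected library and 187 in WT, at least 69.9-fold lower in 5mRNA when its 0 is set to 3 reads. *ifit15* and *ifit14*, neighbours on chromosome 17 from the same family of RNA-binding proteins, had 6 and 4 reads in 5mRNA, against 949 and 345 reads in WT. The *ifit* and *mx* genes have close copies, between which reads may be divided.

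Further members spanned a wide range of ratios. The ubiquitin-like modifier *isg15* had 1.64 RPKM in 5mRNA and 3.28 RPKM in 5MO, against 51.3 RPKM in WT. *mxe*, a dynamin-like antiviral GTPase, had 1 read in 5mRNA and 8 in 5MO, against 172 in WT. With less than 1 RPKM in both injected libraries, *mxe* was compared only because WT was high. Of the RNA sensors, *dhx58* was at 0.486 RPKM in 5mRNA and 6.40 RPKM in WT, and *ifih1* at 0.549 RPKM in 5mRNA and 2.25 RPKM in WT. Among the transcription factors, *stat1b* and *irf7* had log2 ratios of -4.73 and -2.29, while *stat2*, *irf9* and *stat1a* had -0.57, -0.28 and -0.23. The list's most abundant gene, *cd9b*, a tetraspanin found in many tissues, had 54.4 RPKM in 5mRNA and 53.1 RPKM in WT. Markers of macrophages, which also respond to interferon, gave a median of -0.03 over 25 genes, 10 higher and 15 lower. Their sums were 719 RPKM in 5mRNA and 696 RPKM in WT, of which *apoeb* alone gave 420 and 414 RPKM. The most different members were lower, with *mpeg1.2* at 0.624 RPKM in 5mRNA and 1.75 RPKM in WT. *marco* had 2.46 RPKM in 5mRNA and 3.89 RPKM in WT, and *mpeg1.1* had 1.54 RPKM in 5mRNA and 2.38 RPKM in WT. The part of macrophages in the interferon values was not tested.

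Genes without a known role shared this pattern, and some were neighbours. The only run of 5 adjacent genes past 2-fold in 1 direction lay on chromosome 13, positions 37480006 to 37517011 (danRer10), where *zgc:123068*, *si:dkey-188i13.6*, *zgc:152791*, *si:dkey-188i13.7* and *si:dkey-188i13.9* were all lower. *zgc:152791* had 0.612 RPKM in 5mRNA and 0.360 RPKM in 5MO, against 35.8 RPKM in WT. *si:dkey-188i13.9* had 0.342 RPKM in 5mRNA and 1.18 RPKM in 5MO, against 32.3 RPKM in WT, and *si:dkey-188i13.8* between these genes was too low to be compared. *zgc:123068* had 2.83 RPKM in 5mRNA and 6.87 RPKM in 5MO, against 60.7 RPKM in WT. *snapc1b*, next to the run on one side, had 6.08 RPKM in 5mRNA and 5.16 RPKM in WT. On the other side *si:dkey-188i13.10* was lower by less, at 9.43 RPKM in 5mRNA and 8.31 RPKM in 5MO, against 11.998 RPKM in WT. Its ratio of read shares in 5mRNA to WT was 0.786 (0.638 to 0.966). Beyond it *si:dkey-188i13.11* was also lower, at 20.8 RPKM in 5mRNA and 20.7 RPKM in 5MO, against 30.97 RPKM in WT. Its interval for 5mRNA to WT was 0.574 to 0.783. The RNA gene *LOC100535167* on chromosome 18 was the most abundant of the 12 lowest genes, at 3.53 RPKM in 5mRNA and 2.398 RPKM in 5MO, against 117 RPKM in WT. The others of these 12 without a described role were *si:dkey-211g8.8*, *si:ch211-276k2.2* and *si:ch73-190m4.1*, with 0, 2 and 1 recovered reads in 5mRNA, against 163, 150 and 225 in WT. They and *zgc:152791* had less than 1 RPKM in both injected libraries and were compared only because WT was high.

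**Figure D4:**
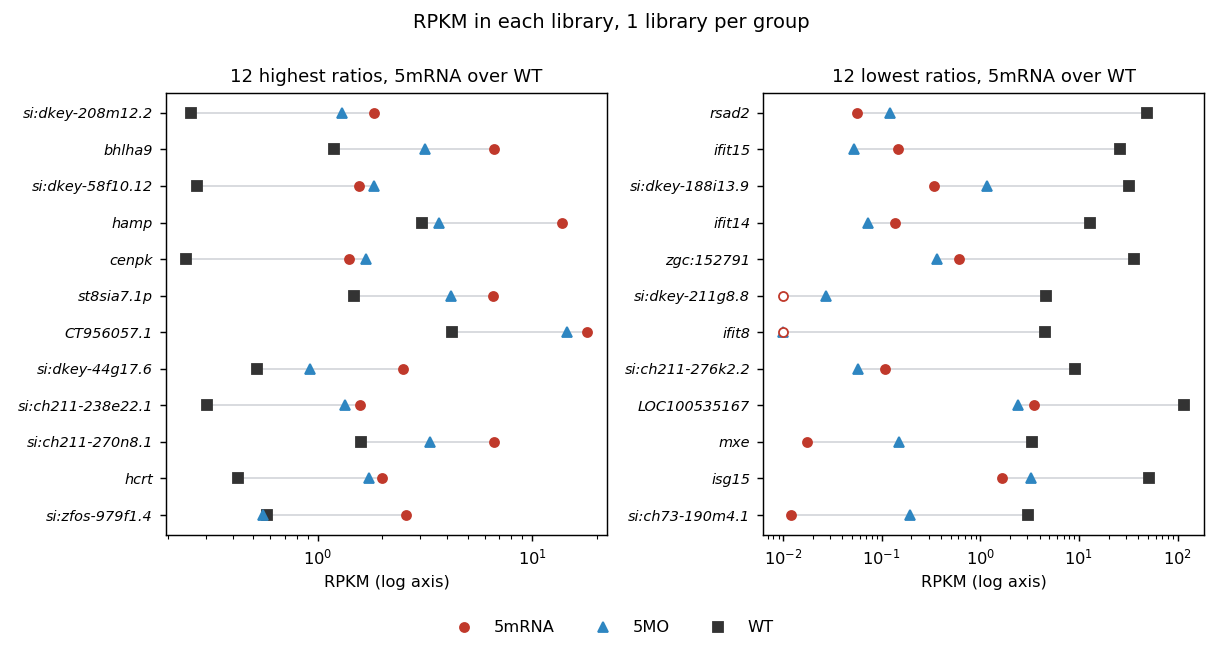
Level of the 12 genes with the highest (left) and the 12 with the lowest (right) log2 ratio of 5mRNA to WT, in each of the 3 libraries (RPKM, log axis); an open symbol at the left edge stands for 0. On the right, WT above 5mRNA is set by how the 12 genes were chosen, and 5MO also lies far below WT for all 12. All but *si:dkey-188i13.9*, *LOC100535167* and *isg15* had less than 1 RPKM in both injected libraries and were compared only because WT was high. On the left, *hamp* and *si:zfos-979f1.4* have 5MO next to WT, and *si:dkey-44g17.6* and *si:zfos-979f1.4* were compared only because 5mRNA was high.

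Immediate early genes, which cells transcribe within minutes of a stimulus, were lower as a group. Of 41 gene rows, 36 were lower in 5mRNA, 19 of them at least 1.5-fold (5.37% of all genes) and 12 at least 2-fold, and the median was -0.55 (-0.59 in 5MO over WT). *nr4a1*, an orphan nuclear receptor, had 5.31 RPKM in 5mRNA and 6.95 RPKM in 5MO, against 25.5 RPKM in WT. The AP-1 genes *fosl1a* and *fosb* had 0.683 and 2.28 RPKM in 5mRNA, against 4.29 and 7.59 RPKM in WT. With 0.820 RPKM in 5MO, *fosl1a* was compared only because WT was high. Of the more abundant AP-1 genes, *junbb* had 32.3 RPKM in 5mRNA and 32.9 RPKM in 5MO, against 85.5 RPKM in WT. *atf3*, a stress-induced factor, had 2.88 RPKM in 5mRNA and 4.09 RPKM in 5MO, against 10.33 RPKM in WT. In *nr4a1*, *fosl1a*, *junbb* and *atf3* 5MO lay nearer to 5mRNA than to WT. These genes were named for their difference between 5mRNA and WT or after their values were seen, so WT apart from 5mRNA was set by the choice.

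Not every early gene took part. The phosphatase *dusp1* had 99.8 RPKM in 5mRNA and 87.1 RPKM in 5MO, against 144 RPKM in WT, whereas *dusp6* had 85.0 RPKM in 5mRNA and 94.0 RPKM in WT. *gadd45ba*, the most abundant member, was higher, at 158 RPKM in 5mRNA and 123 RPKM in 5MO, against 120 RPKM in WT. *egr4*, *homer1b* and *klf6a*, which respond to activity in neurons or to injury, had log2 ratios between -0.03 and 0.00. *fosab* stands on 2 overlapping rows, at 34.4 and 28.9 RPKM in 5mRNA against 98.2 and 64.0 RPKM in WT, and reads of the overlap cannot be assigned to 1 of them.

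The glucocorticoid receptor carries the signal of cortisol, the stress hormone of fish. *fkbp5*, a chaperone of this receptor and a classical target of it, had 14.8 RPKM in 5mRNA and 14.1 RPKM in 5MO, against 260 RPKM in WT. Its ratio of read shares was 0.0570 (0.0523 to 0.0620), the smallest of any gene at 50 RPKM or more. *klf9*, a further target, had 56.9 RPKM in 5mRNA and 30.6 RPKM in 5MO, against 167 RPKM in WT. *hsd11b2*, which inactivates cortisol, had 7.52 RPKM in 5mRNA and 5.04 RPKM in 5MO, against 16.8 RPKM in WT. The receptor gene *nr3c1* did not follow, at 33.1 RPKM in 5mRNA and 27.5 RPKM in 5MO, against 27.2 RPKM in WT.

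Over the whole list of 39 fasting and glucocorticoid genes, 25 were lower and 14 higher, with 4 at least 2-fold lower and a median of -0.17 (-0.39 in 5MO over WT). The uncoupling protein *ucp2* was the fourth of these, at 66.7 RPKM in 5mRNA and 55.9 RPKM in 5MO, against 140 RPKM in WT. *ucp1*, the most abundant member, was higher at 1553 RPKM in 5mRNA and 1226 RPKM in 5MO, against 1264 RPKM in WT. *angptl4* and *igfbp1b*, secreted proteins that rise on fasting in mammals, had log2 ratios of 0.84 and 0.64. In *angptl4* 5MO lay with 5mRNA at 53.1 RPKM, and in *igfbp1b* it lay with WT at 92.2 RPKM. These were the 2 members at least 1.5-fold higher, against 10 at least 1.5-fold lower.

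**Figure D5:**
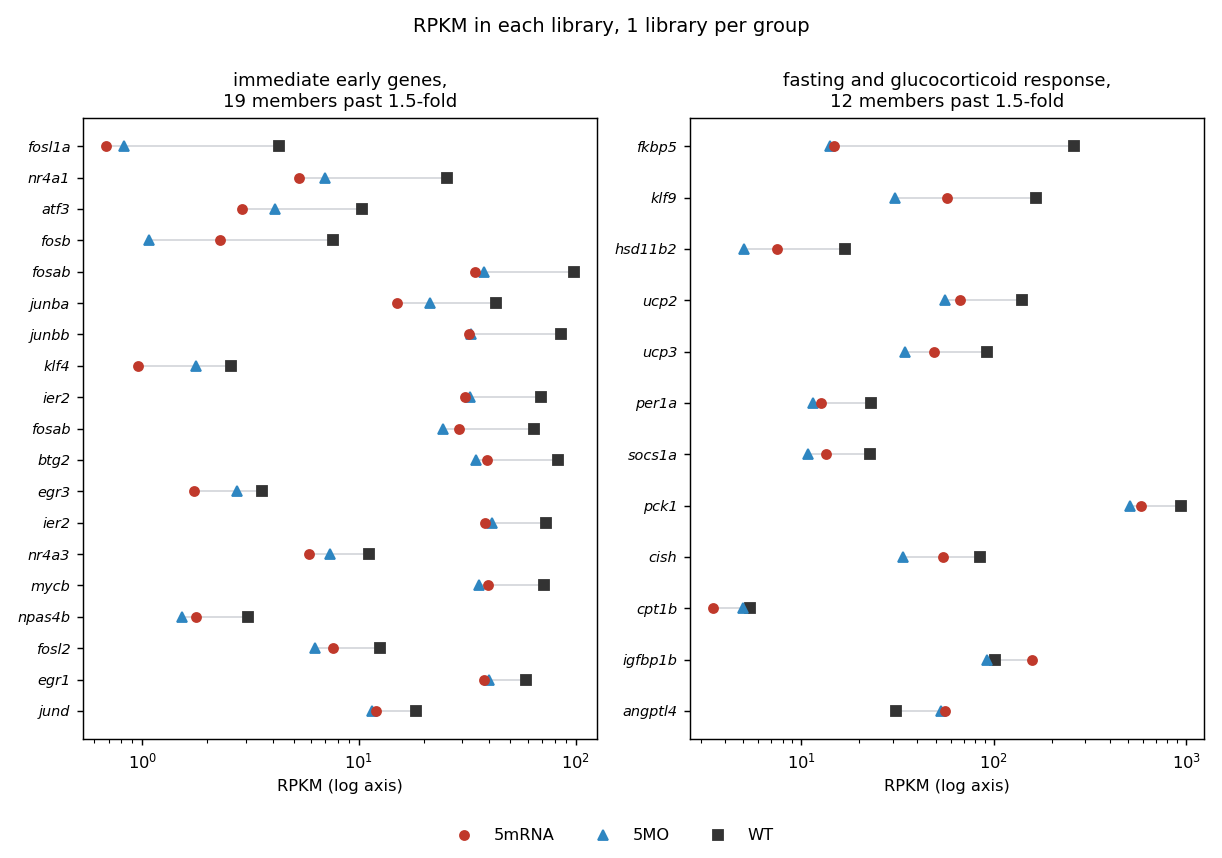
Level of the immediate early genes (left) and of the fasting and glucocorticoid genes (right) whose 5mRNA and WT levels differed at least 1.5-fold, in each of the 3 libraries (RPKM, log axis). The gap between 5mRNA and WT is set by how the genes were chosen, and 5MO is seen against the same WT library. All 19 gene rows on the left, with *fosab* on more than 1 of them, and 10 of the 12 genes on the right are highest in WT. *angptl4* is lowest in WT and *igfbp1b* highest in 5mRNA.

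Clock genes mostly lay within 1.5-fold of WT, and those past it were all lower. *nr1d2a*, a nuclear receptor that represses transcription in the clock, had 49.4 RPKM in 5mRNA and 39.9 RPKM in 5MO, against 124 RPKM in WT, and *per1a*, which is also a glucocorticoid target, had 12.6 RPKM in 5mRNA and 11.5 RPKM in 5MO, against 23.0 RPKM in WT. *nfil3-2* had 5.70 RPKM in 5mRNA and 4.04 RPKM in 5MO, against 10.8 RPKM in WT. Of 47 clock genes 33 were lower, with 1 past 2-fold and a median of -0.07 (-0.30 in 5MO over WT). At least 1.5-fold lower were 6 of them, against 5.37% of all genes. Counting intervals lay below 1 for 22 and above 1 for 8, against 18.8% and 19.1% of all genes. The clock genes *per3* and *cry1aa* lay near WT, at log2 ratios of 0.06 and 0.04.

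Lens genes showed a small and even difference. Crystallins are the proteins that fill the fibre cells of the lens, and of 49 crystallin genes 46 were lower in 5mRNA, with a median of -0.29 and counting intervals below 1 for 35, against 18.8% of all genes. Only 3 were at least 1.5-fold lower. The sum was 18007 RPKM in 5mRNA and 19589 RPKM in 5MO, against 22051 RPKM in WT. *cryba1l1*, the most abundant crystallin, had 1750 RPKM in 5mRNA and 1940 RPKM in 5MO, against 2128 RPKM in WT. *crybb1* had 1371 RPKM in 5mRNA and 1849 RPKM in 5MO, against 1746 RPKM in WT. *cryaa*, the alpha-crystallin chaperone, had 31.2 RPKM in 5mRNA and 42.2 RPKM in 5MO, against 44.9 RPKM in WT.

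Genes of the lens membrane and cytoskeleton, which share no sequence with crystallins, were lower for all 13 compared, with a median of -0.40. *lim2.3*, a membrane protein of lens fibres, had 36.2 RPKM in 5mRNA and 41.1 RPKM in 5MO, against 57.5 RPKM in WT. The water channel *mipa* had 28.9 RPKM in 5mRNA and 37.5 RPKM in 5MO, against 40.7 RPKM in WT. The most abundant, *lim2.4*, had 101 RPKM in 5mRNA, 108 RPKM in 5MO and 119 RPKM in WT. *crybb3* was the 1 crystallin at least 2-fold higher, at 1.82 RPKM in 5mRNA and 0.648 RPKM in WT from 41 and 13 reads. With 0.719 RPKM in 5MO, it was compared only because 5mRNA was high. The *crygm2d* genes are near-identical copies, and the division of reads among them is uncertain. Photoreceptors of the same organ had medians of -0.12 over 26 cone genes and -0.08 over 19 rod genes.

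Some epithelial genes were lower too. Of 28 genes of ionocytes, the salt-transporting cells of the skin, 21 were lower with a median of -0.22, though the sum was 970 RPKM in 5mRNA and 931 RPKM in WT. *kcnj1a.6*, a potassium channel, had 1.62 RPKM in 5mRNA and 1.77 RPKM in 5MO, against 3.32 RPKM in WT, and the sodium pump subunit *atp1a1a.3* had 2.32 RPKM in 5mRNA and 4.72 RPKM in 5MO, against 4.24 RPKM in WT. The vitamin D hydroxylase *cyp24a1* went the other way, at 140 RPKM in 5mRNA and 101 RPKM in 5MO, against 75.8 RPKM in WT. In the epidermis *cldnb*, a tight junction protein, had 34.9 RPKM in 5mRNA and 39.7 RPKM in 5MO, against 75.4 RPKM in WT. The abundant keratins *krt4* and *krt5* lay at log2 ratios of 0.00 and 0.03, and over 38 epidermal genes the median was -0.11, with sums of 8918 RPKM in 5mRNA and 8747 RPKM in WT. *itln3*, an intelectin of secretory epithelium, had 4 reads in 5mRNA against 66 in WT. At 0.167 RPKM in 5mRNA and 0.09 RPKM in 5MO, it was compared only because WT was high, at 3.09 RPKM. Only 4 of the 9 genes of that epithelium were compared, and 2 of them, *itln3* and *agr2*, were at least 2-fold lower. *agr2*, the most abundant of the 4, had 2.999 RPKM in 5mRNA and 5.296 RPKM in 5MO, against 6.14 RPKM in WT. Its log2 ratio was -1.01, and *muc5.1* and *sytl2b* had log2 ratios of -0.23 and 0.19.

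Proteasome genes encode the machine that degrades ubiquitin-tagged proteins, the other large route of protein turnover beside autophagy. Of 41 gene rows 40 were lower in 5mRNA, and the interval lay below 1 for 35, but only 1 was past 1.5-fold and the median was -0.22. The median in 5MO over WT was -0.40. *psmb7*, a core subunit, had 172 RPKM in 5mRNA and 131 RPKM in 5MO, against 190 RPKM in WT, and *psmd11b* of the regulatory lid had 24.7 RPKM in 5mRNA and 22.6 RPKM in 5MO, against 34.8 RPKM in WT. *psma6l* and *psmd10*, the furthest from WT, had 31 and 92 reads in 5mRNA, against 44 and 123 in WT. The list was drawn up by gene name and holds *psmc3ip*, which is a recombination factor and not a subunit.

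Chaperone genes of the cytosol and of the endoplasmic reticulum were lower more often than higher. Of 47 heat shock and cytosolic or mitochondrial chaperone genes 37 were lower, with a median of -0.18, but the median in 5MO over WT was 0.03. *hspb6*, a small heat shock protein of muscle, had 4.73 RPKM in 5mRNA and 8.05 RPKM in 5MO, against 12.26 RPKM in WT, and *hspa4a* had 7.12 RPKM in 5mRNA and 18.6 RPKM in 5MO, against 14.8 RPKM in WT. In the endoplasmic reticulum, 29 of 41 genes of the unfolded protein response were lower, with a median of -0.16 and 0.12 in 5MO over WT. *hspa5* (BiP), its main chaperone, had 32.2 RPKM in 5mRNA and 73.0 RPKM in 5MO, against 46.7 RPKM in WT. *creld2* had 0.547 RPKM in 5mRNA and 2.27 RPKM in 5MO, against 2.22 RPKM in WT, and *manf* had 1.65 RPKM in 5mRNA and 5.36 RPKM in 5MO, against 3.79 RPKM in WT. In *hspa4a*, *hspa5* and *manf* the order was the same, with 5mRNA lowest and 5MO highest, while in *creld2* 5MO and WT were nearly equal.

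Some genes of DNA replication had that order and others did not. Of 52 genes 37 were lower in 5mRNA, with a median of -0.22, and the median in 5MO over WT was 0.32. *mcm6*, a subunit of the replicative helicase, had 4.15 RPKM in 5mRNA and 11.5 RPKM in 5MO, against 5.93 RPKM in WT. *mcm7*, of the same helicase and the most abundant member, had 138 RPKM in 5mRNA and 136 RPKM in 5MO, against 160 RPKM in WT. The cell cycle factor *e2f1* had 0.703 RPKM in 5mRNA and 1.36 RPKM in 5MO, against 1.46 RPKM in WT. *orc1*, of the complex that marks origins, had 0.701 RPKM in 5mRNA and 2.31 RPKM in 5MO, against 1.51 RPKM in WT, and the ribonucleotide reductase subunit *rrm2* names 2 loci, on chromosomes 20 and 19, with log2 ratios of -0.70 and 0.91. Of the 52 genes, only *orc1* was past 2-fold.

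Several genes of cholesterol synthesis and uptake were lower. *hmgcra*, the rate-limiting reductase, had 5.51 RPKM in 5mRNA and 7.62 RPKM in 5MO, against 11.7 RPKM in WT, and *ldlrb*, a receptor for low-density lipoprotein, had 6.41 RPKM in 5mRNA and 17.7 RPKM in both 5MO and WT. *cyp51* had 6.72 RPKM in 5mRNA and 15.95 RPKM in 5MO, against 13.3 RPKM in WT. *insig1*, the most abundant of the 26 and a brake on the pathway, was at 43.5 RPKM in 5mRNA and 39.2 RPKM in WT. *mvda*, of the mevalonate steps, had 5 reads in 5mRNA and 29 reads in 5MO, against 14 reads in WT. Over the list 15 genes were lower and 11 higher, with 3 at least 2-fold lower and a median of -0.10.

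The genes furthest above WT were mostly of low level. By the rule of at least 20 recovered reads in 5mRNA or WT, the highest was *si:dkey-208m12.2*, with 32 reads in 5mRNA and 21 in 5MO, against 4 in WT. *bhlha9*, a transcription factor of limb and fin development, had 6.62 RPKM in 5mRNA and 3.16 RPKM in 5MO, against 1.19 RPKM in WT (ratio 5.54, interval 3.58 to 8.92). *cenpk*, a centromere protein, had 26 reads in 5mRNA and 29 in 5MO, against 4 in WT. *hcrt*, the precursor of the wakefulness peptides hypocretins, had 21 reads in 5mRNA and 17 in 5MO, against 4 in WT. *CT956057.1*, with no annotated type, was the most abundant of the 12, at 18.1 RPKM in 5mRNA and 14.6 RPKM in 5MO, against 4.22 RPKM in WT. *st8sia7.1p*, described as a pseudogene of the sialyltransferase family though its annotated type is protein-coding, had 100 reads in 5mRNA and 20 in WT.

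The remaining 5 of the 12 highest are known only by clone names. *si:ch211-270n8.1* had 122 reads in 5mRNA and 57 in 5MO, against 26 in WT. The other 4, among them *si:dkey-58f10.12*, *si:dkey-44g17.6* and *si:zfos-979f1.4*, had 20 to 32 reads in 5mRNA, against 4 to 6 in WT. At such counts the intervals were wide, for example 1.96 to 13.9 for *si:dkey-44g17.6*. Both *si:dkey-44g17.6* and *si:zfos-979f1.4* had less than 1 RPKM in WT and in 5MO, and were compared only because 5mRNA was high. The point at the top of the plot of level against ratio is *si:ch211-226f24.4*, with 19 reads in 5mRNA and none in WT, and was left out by the rule.

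Abundant genes past 2-fold were few, and are named here after their values were seen. *diabloa*, a mitochondrial activator of apoptosis, was the 1 gene at 50 RPKM or more at least 2-fold higher, at 145 RPKM in 5mRNA and 124 RPKM in 5MO, against 62.2 RPKM in WT. Of the 12 lower ones, *nmrk2*, a muscle kinase of NAD synthesis, had 36.7 RPKM in 5mRNA and 59.4 RPKM in 5MO, against 126 RPKM in WT. The translation factor *eif4a1a* had 64.9 RPKM in 5mRNA and 115 RPKM in 5MO, against 157 RPKM in WT. *fkbp5*, *klf9*, *nr1d2a*, *fosab*, *junbb*, *cldnb* and *ucp2* are described above, and *btg2*, an early gene that also answers to p53, had 38.9 RPKM in 5mRNA and 34.7 RPKM in 5MO, against 83.0 RPKM in WT. *prelid3b* and *si:dkey-7c18.24* had log2 ratios of -1.21 and -1.25.

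Large parts of the larva were close in the 2 libraries. The list of cytoplasmic ribosomal proteins also holds *rps6ka1* and *rps19bp1*, whose products are not ribosomal subunits. Its 95 genes gave a median of 0.03 and the 84 nuclear genes of the respiratory chain -0.07, none of either past 1.5-fold. The same held for 42 genes of neurons and synapses (-0.01), 29 of myelin and glia (-0.01), 46 Hox genes (0.05) and 56 transmitter receptors (0.05). Fast muscle gave 0.03 over 41 genes, with *mylpfa* at 4884 RPKM in 5mRNA and 4887 RPKM in WT, and *tnni2a.3*, a troponin gene, the only one past 2-fold at 6.07 RPKM in 5mRNA and 2.76 RPKM in WT. In the skeleton, 29 cartilage genes gave 0.09 with none past 1.5-fold. Of 28 osteoblast genes 18 were compared and gave 0.14, with 1 at least 1.5-fold higher and 1 at least 1.5-fold lower. *col2a1a*, the main cartilage collagen, had 102 RPKM in 5mRNA and 148 RPKM in 5MO, against 90.1 RPKM in WT.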

How the data were processed

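The authors deposited 1 table of RPKM values, with 1 column for each of the 3 libraries, and a STAR mapping summary for each library. The submitters' processing notes name STAR 2.5.2a and danRer10. The counting tool, the annotation release and the use of strand are not given in the sources used here, so overlapping genes are uncertain. Of 28117 rows, 33 without a gene name were left out, since their RPKM values were scaled to a total of their own.

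Whole reads were recovered from the RPKM steps as the smallest whole numbers that share 1 whole gene length, so a true count is that number or a multiple of it. Ratios of read shares carry 95% Clopper-Pearson intervals, which cover counting error only. With 1 library per group no test was run. The scripts used Python 3.11.15, numpy 2.4.6, pandas 2.3.3, scipy 1.17.1 and matplotlib 3.10.9, and were tested on simulated data.

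A rule gave genes to name: *atg5*, the 12 highest and 12 lowest ratios with at least 20 reads in 5mRNA or WT, and in each list described the 3 most abundant and the 3 most different members. Not every gene that the rule gave is named, so the examples are a selection from them. Other genes named were chosen after their values were seen. The genes and lists were chosen with earlier results of these data known. Other pseudocounts, filters and scalings were tried.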

Additional observations from a re-analysis of the deposited data

Results flagged for a closer look

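A row without a gene name on chromosome 7 (positions 38894772 to 38895067, danRer10) had a deposited value of 3255 in 5mRNA and 4588 in 5MO, against 0 in WT. It drew attention as a signal outside the genes compared. The rows without a name are scaled to a total of their own, so this value is not on the scale of the RPKM values above. A row of the same kind on chromosome 16 went the other way, at 0 in both 5mRNA and 5MO, against 4016 in WT.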

How the results depend on the processing

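The counts of genes at least 2-fold higher in 5mRNA and of genes at least 2-fold lower in 5mRNA depended on how low values were treated. A pseudocount of 1 RPKM gave 50 higher and 166 lower, a minimum mean of 0.1 RPKM gave 896 and 909, a minimum of 5 RPKM gave 36 and 96, and no filter gave 1132 and 1100. The other 12 counts were within 1.5-fold of those reported. The median of the interferon-stimulated genes was -1.07 with a pseudocount of 1 RPKM and -0.67 with a minimum of 5 RPKM. Of 720 list medians over all settings, 718 moved little and 19 near 0 took the other sign. Hepatocyte medians ran between 0.56 and 0.60, and pancreas medians between 0.39 and 0.41. Moved little means a shift no larger than the reach of the counting interval to 1 side, on the log2 scale. For a list the median reach of its members was used. Among 627 values of 73 named genes 619 moved little, 8 moved more, all 8 with a pseudocount of 1 RPKM, and none was reversed. A gene with 0 reads in 5mRNA or WT has no such limit and was counted as moved little at any shift, *ifit8* and *si:dkey-211g8.8* among them. Values of the named genes ran between -9.52 and 2.84. *atg5* kept a log2 ratio between -0.03 and -0.01. Raising reads below 3 to 3 and requiring 20 reads were chosen after seeing the data. No paired analysis was possible because each group has 1 library.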

Other observations

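Endocrine genes gave a few differences at low level, and these genes were chosen after their values were seen. *gh1*, growth hormone, had 3.71 RPKM in 5mRNA and 1.605 RPKM in 5MO, against 1.29 RPKM in WT, while *pomca*, the precursor of corticotropin, had 11.1 RPKM in 5mRNA and 10.9 RPKM in 5MO, against 12.4 RPKM in WT. *star*, which brings cholesterol into mitochondria for steroid synthesis, had 5.44 RPKM in 5mRNA and 5.77 RPKM in 5MO, against 2.63 RPKM in WT. In the kidney, the salt transporter *slc12a1* had 1.59 RPKM in 5mRNA, against 3.49 RPKM in WT. Among hypoxia genes, *pfkfb4b*, a regulator of glycolysis, had 19.2 RPKM in 5mRNA and 14.1 RPKM in 5MO, against 62.0 RPKM in WT.

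Genes were also grouped by the stem of their names, which gave 305 groups of at least 8 genes. The lowest median log2 ratio, -0.44, was that of the 8 *stat* genes, all lower in 5mRNA. *stat1a*, *stat1b* and *stat2* were described above with the interferon-stimulated genes. All 8 *hsp* genes were lower with a median of -0.37. All 29 *crygm* genes were lower with a median of -0.30, and these are lens crystallins, a group also described above. Of 61 *cyp* genes, 45 were higher, with a median of 0.21. Nicotinic receptor subunits (*chrna*) had the highest median of the groups, 0.37, and were higher for 7 of 8. The median over the 305 groups was 0.01.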
